A study of Mus musculus with 18 samples.

Results

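The Reg genes encode small secreted proteins with a C-type lectin fold. In the intestine, Reg3b and Reg3g are known as bactericidal lectins that the epithelium releases into the mucus, Reg1 and Reg3a are secreted by gut epithelium and pancreas, Reg2 and Reg3d are best known from the pancreas, and Reg4 is known from enteroendocrine and other secretory cells. Interleukin 22, made by immune cells, is the best known inducer of Reg3b and Reg3g and acts through STAT3, and signals from bacteria sensed through Myd88 are another. Extl3, an exostosin-family glycosyltransferase, has been proposed as a receptor for Reg proteins.

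All 7 Reg genes of the deposited table, Reg1, Reg2, Reg3a, Reg3b, Reg3d, Reg3g and Reg4, were selected by gene symbol out of 24116 genes. The family itself was chosen with the RPKM values of these libraries known, so that the levels by day of its members are a description and carry no p-value. RPKM relate the reads of a gene to its length and to the size of the library. At least 1 RPKM in at least 3 libraries was asked of a gene before testing, which 6 members and 11111 of all genes met. Reg2 did not. Reg3d met it only through replicate 1 of day 4 and the 3 libraries of day 5, where it was high, so a change into those days was built into its passing.

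Messenger RNA was measured by sequencing in organoids of mouse intestine, epithelial structures that grow in culture from stem cells, on each day of their growth from day 0 to day 5. There were 3 libraries a day and 18 in all, each from 30 pooled wells, from lines of wild-type C57BL/6 animals aged 8 weeks. The 3 lines are named in the titles as mouse 1, 2 and 3. On days 0, 3, 4 and 5 the replicate number is also the number of the mouse, while on days 1 and 2 both replicates 1 and 2 are titled mouse 1. Replicate 1 of every day was made without DNase treatment and the other 12 libraries with it, so that the DNase step and mouse 1 cannot be told apart except on days 1 and 2. Organoids were maintained in a commercial growth medium beforehand. All cultures of the time course then received EGF (100 ng/ml), Noggin (100 ng/ml) and R-Spondin (500 ng/ml). Until day 3 they also received 20% Wnt3a-conditioned medium and 10 µM of the ROCK inhibitor Y-27632, and until day 1 also 3 µM of the GSK3 inhibitor CHIR99021. Day and medium therefore change together. The labels name no added immune cells or bacteria.

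The depths implied by the steps of the low values were 43010000 to 53930000 reads a library, and 9953 to 10758 genes reached 1 RPKM. The epithelial marker Epcam was at 442 ± 55.3 RPKM (SD, n = 3) on day 0 and 421 ± 31.0 on day 5. Other epithelial markers were not level. The keratin genes Krt8, Krt18 and Krt19 had means of 437, 393 and 662 RPKM on day 0 and 1555, 1218 and 2080 on day 1. The sum of 8 epithelial markers was 2046 to 3446 RPKM on day 0, 4541 to 7048 on day 1 and 2445 to 3035 on day 5. The immune genes Il22 and Il23r were at 0 in all 18 libraries, and 5 mesenchymal markers summed to at most 0.0404 RPKM in any library. Over the 11111 genes, a library's mean correlation with the other 2 of its day was lowest for replicate 3 of day 4 (r = 0.928), replicate 1 of day 4 (0.938), replicate 1 of day 3 (0.939) and replicate 2 of day 3 (0.942), against 0.976 to 0.982 on day 5. The means and changes of Reg1, Reg3a, Reg3b and Reg3g that move most with these libraries are given with and without them. In whole organoids, fewer cells of a type and less RNA per cell cannot be told apart.

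Most members lie side by side, which is why their start sites are shown first. Reg3b, Reg3d, Reg3a, Reg2, Reg1 and Reg3g, in this order, fall within 98.0 kb of chromosome 6 (mm10, chr6:78370885-78468874), and the only other annotated gene between them is the pseudogene Gm52853. Reg3d and Reg3g are on the minus strand. Reg4 lies apart on chromosome 3 (chr3:98222138-98236748, plus strand). The 30 bases that end 16 bases before each start in RefSeq's promoter table of GRCm38.p6 are shown. They are written 5′ to 3′ on the strand of the gene and tell which members hold TATAAA, a common form of the TATA box. The TATA box is the sequence that places the start of transcription in many tissue-specific genes. For Reg4 the table counts from a start downstream of the first base of the gene, so the last bases of its window lie within the gene. Capitals mark TATAAA.
Reg1 (chr6:78425938-78425967): ttcagccctgatgtaTATAAAaggcctacc
Reg2 (chr6:78405110-78405139): ccctaacctgttgcaTATAAAagacctacc
Reg3b (chr6:78370840-78370869): ctccctcaaattctgtTATAAAaacacagt
Reg3g (chr6:78468890-78468919): ccctccctcaagtcctacTATAAAaacagt
Reg3a (chr6:78380664-78380693): agctatcacccagacttaaataagcattca
Reg3d (chr6:78378881-78378910): gcacttcttcacttgcatggccctacttca
Reg4 (chr3:98222111-98222140): ttgagacaagaaggtataagagctgcagga

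Reg1, Reg2, Reg3b and Reg3g held TATAAA here, with its first base 27 to 30 bases before the start. It stood on the strand of the gene with its first base 20 to 40 bases before the start in 2.0% of the 32841 promoters of the table. These letters are not in the windows of Reg3a, Reg3d and Reg4. Other forms of the TATA box were not searched, so whether these members lack one was not tested.

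Upstream of the TATA box, Reg3b and Reg3g were the most alike pair of the 7 genes, with 62.5% identity over the 110 bases that end 26 before the start. All other pairs were at 41.1% to 57.7%. The pair is shown because both encode bactericidal lectins, while the ratio of their levels differed between replicates on days 4 and 5. Capitals mark the STAT motif and the first letters of TATAAA.
Reg3b (chr6:78370750-78370859): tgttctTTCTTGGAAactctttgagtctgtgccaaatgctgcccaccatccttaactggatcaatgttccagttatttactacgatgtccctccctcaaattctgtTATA
Reg3g (chr6:78468900-78469009): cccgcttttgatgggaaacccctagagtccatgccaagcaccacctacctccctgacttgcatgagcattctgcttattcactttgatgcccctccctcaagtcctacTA

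The consensus of STAT factors, TTCNNNGAA, which reads the same on both strands, was searched in the 250 bases before each start, because STAT3 carries the interleukin 22 signal. It matched in Reg3b and Reg3d and in none of the other 5 members' windows, and in 7.0% of all promoters. The matches are shown with their surroundings, in capitals.
Reg3b (chr6:78370746-78370775): agcctgttctTTCTTGGAAactctttgagt
Reg3d (chr6:78379084-78379113): ttacttaagtTTCCCAGAAtctgacacctg
AGATAA, a letter form of the site of GATA factors, searched on both strands, matched in Reg4 only among the members and in 10.0% of all promoters. On either strand, TATAAA was present in 12.4% of the promoters. The STAT, TATA and GATA matches do not overlap each other.

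The coding sequences of the members, from the GENCODE M21 annotation of GRCm38, ran from 474 bases in Reg4 to 528 in Reg3a, Reg3b and Reg3d. Reg1 and Reg2 were the closest pair, identical at 82.5% of the aligned bases, followed by Reg3b with Reg3g and Reg3a with Reg3b, both at 76.4%. The longest stretch without a difference between any 2 members is shown because reads that lie wholly within such a stretch fit both genes. It spans 35 bases near the 5′ end of the coding sequences of Reg3b and Reg3g.
Reg3b and Reg3g: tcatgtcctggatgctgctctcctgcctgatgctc
Only a read of at most 35 bases can lie wholly within this stretch, and the read length is not stated here. How the authors' counting treated reads that fit several genes is not given in the sources used here. Whether reads were exchanged among Reg3b, Reg3g and Reg3a was not tested.

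Reg1 was the most abundant member at the end of the course. On day 0 its 3 libraries read 27.6, 32.8 and 5.69 RPKM (replicates 1, 2 and 3). Day 1 gave 8.08, 2.00 and 2.42, and day 2 gave 3.82, 11.3 and 1.70. Reg1 was thus low and its days overlapped. The values were 129, 0.760 and 10.4 on day 3, 2242, 107 and 67.6 on day 4, and 5240, 2148 and 3056 on day 5. On day 5 all 3 libraries were above every library of days 0 to 3, but replicate 1 of day 4 lay among them. The lowest value stood for 27 reads and the highest for 210747. Ordered by RPKM, Reg1 was the third gene of all 3 day 5 libraries, whereas it ranked between 372 and 10730 on day 3.

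By means, Reg1 was ordered day 5 (3481 ± 1589 RPKM, SD, n = 3), day 4 (806 ± 1244), day 3 (46.8 ± 71.6), day 0 (22.0 ± 14.4), day 2 (5.62 ± 5.07) and day 1 (4.17 ± 3.395), and each neighbouring pair of days overlapped. The mean of day 3 was 5.56 RPKM without replicate 1 and 69.8 without replicate 2, and that of day 4 was 87.3 without replicate 1. Between day 4 and day 5, Reg1 was 2.34 times as high in replicate 1, 20.1 times in replicate 2 and 45.2 times in replicate 3. The replicate with the highest day 4 level had the smallest ratio.

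Reg3a, the mouse gene that shares its name with a human bactericidal lectin, followed a like course at lower levels. Its libraries held 2.71, 2.43 and 1.61 RPKM on day 0 and 0.598, 0.459 and 0.688 on day 1. All 3 values of day 1 lay below those of day 0, although they stood for only 17 to 27 reads. Day 2 gave 1.25, 5.29 and 0.276, and day 3 gave 37.7, 0.207 and 4.30. Day 4 gave 595, 62.2 and 32.9 and day 5 gave 542, 366 and 590. The means were 14.1 ± 20.5 on day 3, 230.1 ± 317 on day 4 and 499.5 ± 118 on day 5 (SD, n = 3). Without replicate 1, the mean was 2.25 on day 3 and 47.6 on day 4. In the order of its means (days 5, 4, 3, 2, 0 and 1), only days 0 and 1 did not overlap.

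Reg3b, which kills mainly Gram-negative bacteria, was no higher on day 5 than on day 4 in 2 of 3 replicates. Its values were 5.91, 1.37 and 1.89 RPKM on day 0, 4.20, 0.685 and 1.31 on day 1, and 1.84, 17.1 and 0.499 on day 2. They were 63.5, 1.40 and 9.94 on day 3, 588, 93.7 and 48.2 on day 4, and 503, 81.3 and 176 on day 5. The means of day 4 and day 5 were 243 ± 299 and 254 ± 222 (SD, n = 3). That of day 4 was 70.9 without replicate 1 and 341 without replicate 3. The ratio of day 5 to day 4 was 0.857 in replicate 1 and 0.868 in replicate 2, against 3.66 in replicate 3. In the order of its means (days 5, 4, 3, 2, 0 and 1), all neighbouring days overlapped.

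Reg3g, which binds the peptidoglycan of Gram-positive bacteria, had a smaller spread than Reg1, Reg3a and Reg3b on days 3 and 4, its highest library being 14.7 and 4.09 times its lowest. Day 0 gave 16.8, 4.37 and 4.02 RPKM, day 1 gave 5.03, 2.16 and 1.95, and day 2 gave 7.72, 10.2 and 3.45. Day 3 gave 35.3, 2.41 and 7.73, day 4 gave 106, 86.6 and 25.8, and day 5 gave 98.6, 172 and 141. The means of days 4 and 5 were 72.7 ± 41.7 (56.2 without replicate 1) and 137 ± 37.1 (SD, n = 3), and all values of day 5 lay above all of days 0 to 3. By means the order was days 5, 4, 3, 0, 2 and 1, and each pair of neighbours overlapped. Replicate 1, the highest library on days 3 and 4, was the lowest on day 5.

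The relation of Reg3b to Reg3g differed between replicates. Per length, Reg3b stood below Reg3g in all 6 libraries of days 0 and 1, at 0.313 to 0.835 of its level. On day 4 the ratio of Reg3b to Reg3g was 5.57, 1.08 and 1.87, and on day 5 it was 5.11, 0.471 and 1.25 (replicates 1, 2 and 3). On both days, then, the ratio was highest in replicate 1 and lowest in replicate 2. Each replicate is another line on these days and replicate 1 alone had no DNase treatment, so line and treatment cannot be told apart there.

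Reg3d and Reg2, the members best known from the pancreas, were the faintest. Reg3d stood at 0 to 0.250 RPKM in the 9 libraries of days 0 to 2, and at 0.575, 0 and 0 on day 3. It read 3.88, 0.987 and 0.728 on day 4 and 2.84, 2.59 and 3.00 on day 5, which stood for 26 to 157 reads. By means it had the order of days 5, 4, 3, 2, 0 and 1, and the libraries of days 4 and 5 all lay above those of days 0 to 3, while the other neighbours overlapped. Reg2 had no read in the 12 libraries of days 0 to 3. A count of 0 allows up to 0.0804 to 0.0980 RPKM there (3 reads, counting error only). On day 4 it had 1, 10 and 0 reads (0.0279, 0.319 and 0 RPKM) and on day 5 it had 1, 6 and 3 (0.0276, 0.202 and 0.0907). Most of these values are at or near that limit and the earlier days had no read, so no fold is given. In coding sequence Reg2 is closest to Reg1, with a longest shared stretch of 19 bases. On day 5, Reg1 had 210747, 71043 and 112322 reads in the same libraries. Whether any Reg2 reads came from Reg1 was not tested.

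Reg4, the one member outside the cluster, took another course. It read 26.8, 8.18 and 20.7 RPKM on day 0 and 47.3, 40.4 and 45.6 on day 1, so that all of day 1 lay above all of day 0. Day 2 gave 36.1, 39.6 and 25.6, and day 3 gave 49.7, 46.4 and 62.4. Day 4 gave 51.3, 62.5 and 61.4, and day 5 gave 113, 90.5 and 60.9. Reg4 was thus higher by day 1, and all of its day 5 values also lay above those of day 1. The order of its means was day 5 (88.2 ± 26.2, SD, n = 3), day 4 (58.4 ± 6.18), day 3 (52.9 ± 8.48), day 1 (44.4 ± 3.59), day 2 (33.8 ± 7.28) and day 0 (18.5 ± 9.48), and only days 1 and 2 did not overlap. Its highest library was 3.27 times its lowest on day 0 and 1.17 to 1.86 times on days 1 to 5. On day 3 this spread was 170 times for Reg1 and 182 times for Reg3a. On day 5, however, Reg3a (1.61), Reg3d (1.16) and Reg3g (1.75) spread less than Reg4 (1.86).

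**Figure D1:**
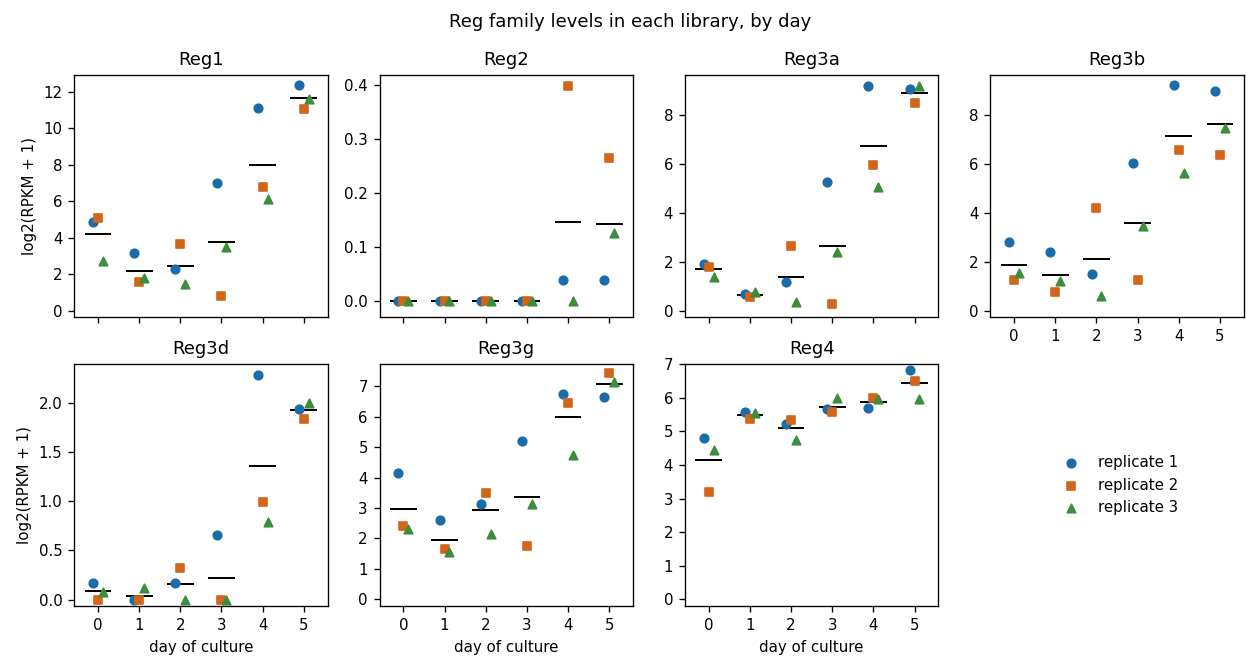
Level of each of the 7 Reg genes as log2(RPKM + 1) on the vertical axis, with its own scale for each gene, against the day of culture. Each point is 1 library, the shape and colour give the replicate, and the bar is the mean of 3. Reg1, Reg3a, Reg3b, Reg3d and Reg3g are highest on days 4 and 5 with replicate 1 on top on days 3 and 4, Reg4 is already higher on day 1, and Reg2 stays below 0.5 on this scale.

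The members took turns in making up the family's RNA. Their summed RPKM was between 31.5 and 83.8 in the 9 libraries of days 0 to 2. It was 316, 51.1 and 94.8 on day 3, 3586, 413 and 237 on day 4, and 6500, 2861 and 4027 on day 5. At day 5 the 7 genes held 1.97%, 0.923% and 1.33% of all RPKM in the table. Reg4 made up 72.5% to 88.4% of the family on day 1 and 1.51% to 3.16% on day 5, where Reg1 made up 75.1% to 80.6%. Since Reg4 itself was higher on day 5 than on day 1, its smaller share came with the higher levels of the clustered members.

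**Figure D2:**
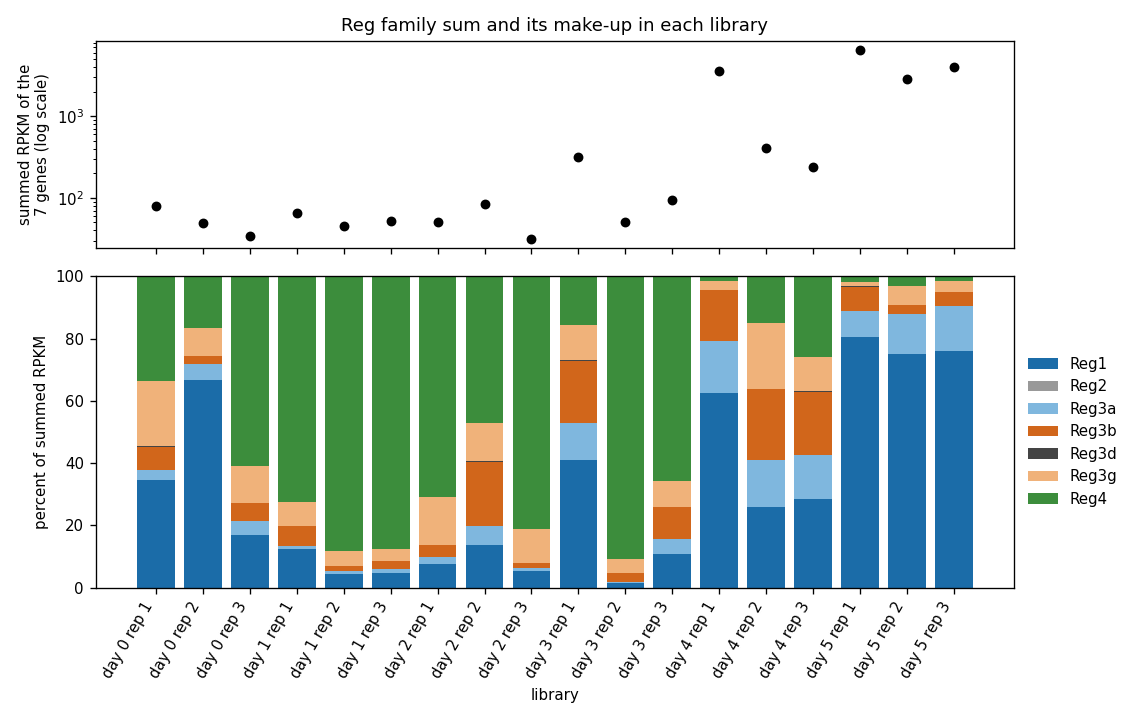
Above, the summed RPKM of the 7 Reg genes in each of the 18 libraries on a log scale. Below, the percent of that sum held by each gene, stacked to 100%. Reg4 (green) fills 72.5% to 88.4% of the day 1 bars and Reg1 (dark blue) 75.1% to 80.6% of the day 5 bars, while on days 3 and 4 the make-up differs between replicates.

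Changes between the days at which the medium changed were fitted with limma on log2(RPKM + 1), over all 18 libraries and all 11111 genes. A gene was called at a Benjamini-Hochberg adjusted p under 0.05. The comparisons share libraries, since day 0, day 1, day 3 and day 5 each enter 2 of them, and are given side by side only. Because the family was chosen on the same values, the counts of members called are read as a description and nothing is drawn from their excess over the shares of all genes.

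Day 1 against day 0 covers the first day with CHIR99021. Reg4 changed by 1.36 ± 0.32 (SE, log2 scale) and was the 1 member of 6 called higher, where 9.54% of all genes were called higher and 9.05% lower. Its values of day 1 were all above those of day 0, as for 21.6% of genes, and those of Reg3a (−1.03 ± 1.05) were all below, as for 19.6%. Reg1 (−2.04 ± 1.36), Reg3g (−1.03 ± 0.74), Reg3b (−0.41 ± 1.17) and Reg3d (−0.04 ± 0.29) overlapped between the days and were not called. The median log2 change of the 6 members was −0.72, and that of all genes was 0.0. With only the libraries of days 0 and 1 in the fit, Reg3a was called too.

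Day 3 against day 1, the phase with Wnt3a and without CHIR99021, gave no called member. The limma fit called 0.036% of all genes higher and 0% lower, and no member had an unadjusted p under 0.05. The log2 changes were 2.13 ± 1.17 for Reg3b, 1.99 ± 1.05 for Reg3a, 1.60 ± 1.36 for Reg1, 1.42 ± 0.74 for Reg3g, 0.24 ± 0.32 for Reg4 and 0.18 ± 0.29 for Reg3d. All 6 are positive, but without replicate 1 of day 3 the change was −0.02 for Reg1, −0.04 for Reg3d, 0.51 for Reg3g, 0.68 for Reg3a and 0.91 for Reg3b. No member had its 3 values of day 3 above those of day 1, where 5.65% of genes did. Replicate 2 of day 3 was below the mean of day 1 for Reg1, Reg3a, Reg3b, Reg3d and Reg3g. Without replicate 2 of day 3, replicate 1 of day 0 and replicate 3 of day 4, the change of Reg1 was 3.09 and that of Reg3b 3.28, and no member was called.

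Day 5 against day 3 spans the phase without Wnt3a and Y-27632. Reg1 changed by 7.89 ± 1.36, Reg3a by 6.29 ± 1.05, Reg3g by 3.72 ± 0.74 and Reg3d by 1.71 ± 0.29 (SE, log2 scale). These 4 of 6 members were called higher, where 1.58% of all genes were called higher and 0.342% lower. With only the libraries of days 3 and 5 in the fit, Reg1, Reg3a and Reg3g lost their calls and 1 member, Reg3d, was called, whose passing of the filter rested on its high values of days 4 and 5. Reg3b (4.03 ± 1.17) and Reg4 (0.70 ± 0.32) were not called. With the replicate number as a block, or the mouse as a factor, which pair the libraries of days 3 and 5, Reg3b was called too, which makes 5 members. In 5 of the 6, all but Reg4, the 3 values of day 5 lay above the 3 of day 3, as for 10.6% of all genes. The median of the members was 3.87, against −0.12 for all genes.

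The wide spread of day 3 bears on these sizes. Without replicate 1 of day 3, the change of Reg1 was 9.51 and that of Reg3b 5.25, and Reg3b was called. Without replicate 2 of day 3, that of Reg1 was 6.40 and that of Reg3g 2.92, and Reg3g was not called. Reg3g also lost its call without replicate 3 of day 3 (3.60), without replicate 2 of day 5 (3.53) and without replicate 3 of day 5 (3.68). With the DNase-treated libraries alone, the changes were 9.16 for Reg1, 7.53 for Reg3a and 4.85 for Reg3g, all called.

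Day 5 against day 0 compares the ends of the course. The log2 changes were 7.45 ± 1.36 for Reg1, 7.25 ± 1.05 for Reg3a, 5.75 ± 1.17 for Reg3b, 4.11 ± 0.74 for Reg3g, 2.29 ± 0.32 for Reg4 and 1.84 ± 0.29 for Reg3d. All 6 were called higher, where 11.4% of genes were called higher and 13.0% lower. In all 6 the 3 values of day 5 lay above the 3 of day 0, as for 19.2% of genes. As ratios of mean RPKM, day 5 over day 0 was 158 for Reg1, 222 for Reg3a, 83.0 for Reg3b, 16.3 for Reg3g and 4.76 for Reg4. The median log2 change of the members was 4.93 and that of all genes −0.17. By the F test over all days, 6 of 6 members and 25.3% of all genes were called.

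**Figure D3:**
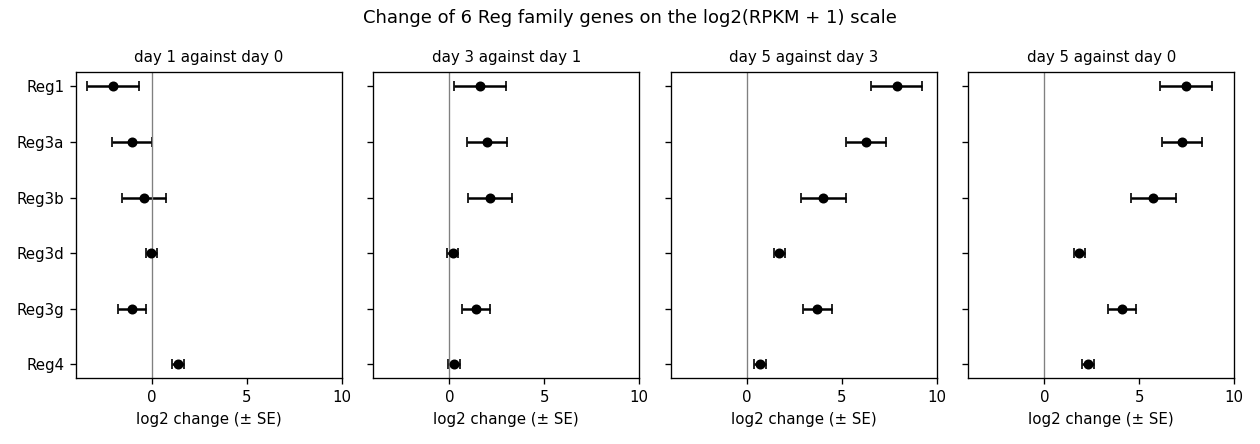
Change on the log2(RPKM + 1) scale (points, with the SE of the limma fit as bars) of the 6 Reg genes that passed the filter, in 4 comparisons that share libraries. Reg4 is the gene with a positive change from day 0 to day 1 (1.36), and from day 3 to day 5 the changes run from 0.70 for Reg4 to 7.89 for Reg1.

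Libraries of 1 day differed in the same direction for most members. Replicate 1 was the highest of days 3 and 4 for Reg1, Reg3a, Reg3b, Reg3d and Reg3g, and replicate 2 the highest of day 2 for all 6 members tested. Replicate 2 of day 2 came from mouse 1 with DNase treatment. Over the 18 libraries, the levels of Reg1, Reg3a, Reg3b, Reg3d and Reg3g correlated with each other at r = 0.92 to 0.98, and Reg4 with them at 0.51 to 0.66. These values describe libraries that share their days, and carry no test.

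The summed levels of cell type markers differed between the same libraries. On day 4, the summed RPKM of 12 enterocyte markers, genes of the absorptive cells such as Fabp1 and Apoa1, was 31980, 15770 and 4708 in replicates 1, 2 and 3, in the same order as Reg1 (2242, 107 and 67.6 RPKM). The sum of 9 Paneth cell markers, among them lysozyme and defensins of the crypt base, was 1285, 1181 and 1264 in these libraries, and did not follow that order. Defa24 and Itln1 made up most of this sum (means of 648 and 311 RPKM on day 4). Its members differed, as Defa17 (88.7, 63.8 and 68.8) and Itln1 (350, 286 and 296) were highest in replicate 1, and Ang4 (29.4, 63.8 and 46.3) was lowest there. On day 3 the enterocyte sum was 12740, 2914 and 6143, again in the order of Reg1 (129, 0.760 and 10.4), and the Paneth sum, at 666, 155 and 636, was in that order too. On day 2, replicate 2 had both the highest enterocyte sum (12440, against 3618 and 2883) and the highest Reg1, Reg3a and Reg3b, with the lowest Paneth sum (57.5, against 152 and 160.4). On day 5 the enterocyte sum was 26150, 21770 and 23220, in the order of Reg1 (5240, 2148 and 3056), and the Paneth sum was 2701 to 3668. On days 0 and 1 the orders differed. The enterocyte sum was 2312, 2047 and 1644 on day 0, with Reg1 at 27.6, 32.8 and 5.69 RPKM. It was 2972, 3766 and 6946 on day 1, with Reg1 at 8.08, 2.00 and 2.42 RPKM. The part of cell type make-up in the levels of the Reg genes was not tested.

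Across days, the order of Reg1 was not that of the enterocyte sum. Replicate 1 of day 4 had a higher enterocyte sum than any day 5 library, but less Reg1 than 2 of the 3. Replicate 2 of day 2 was near replicate 1 of day 3 in enterocyte sum (12440 and 12740), with 11.3 and 129 RPKM of Reg1. Day 0 had the lowest enterocyte sums (1644 to 2312) and more Reg1 in 2 of its libraries than any library of days 1 and 2.

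**Figure D4:**
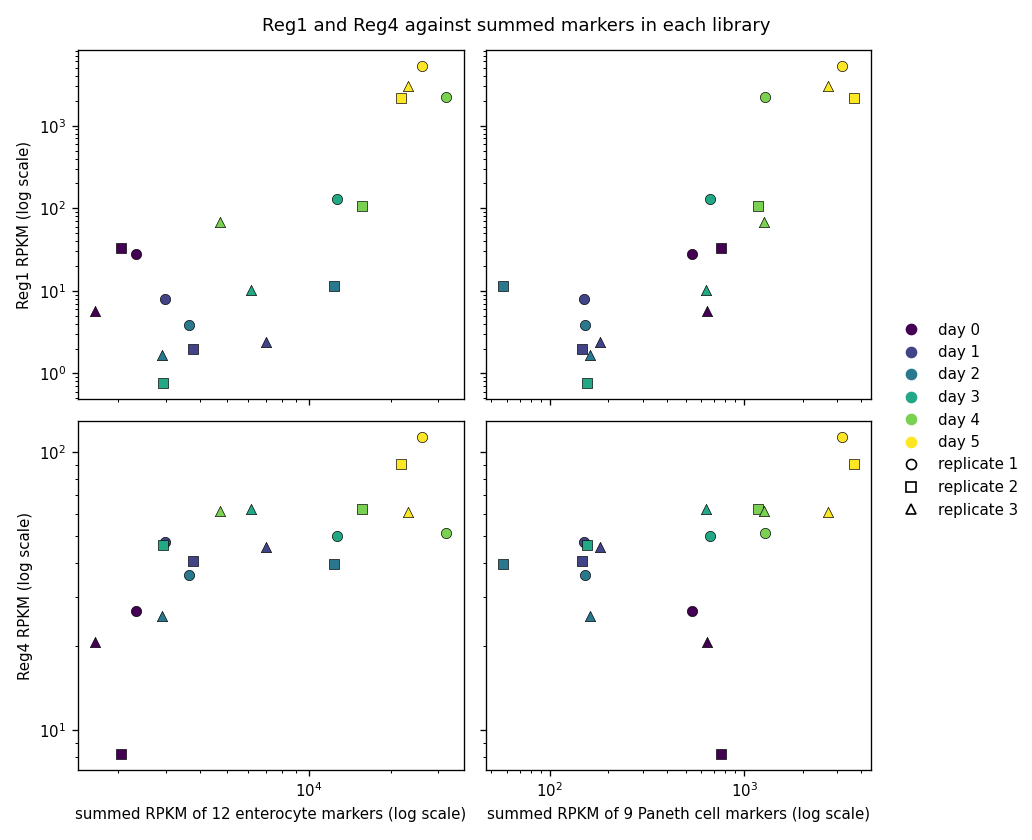
RPKM of Reg1 (top) and Reg4 (bottom) in each of the 18 libraries against the summed RPKM of 12 enterocyte markers (left) and 9 Paneth cell markers (right), all on log scales, with the day as colour and the replicate as shape. On day 4 Reg1 spans 67.6 to 2242 RPKM while the Paneth sum stays between 1181 and 1285, and Reg4 stays between 51.3 and 62.5.

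Of all genes, limma called 11.4% higher on day 5 than on day 0 and 1.58% higher than on day 3. On day 1 against day 0 it called 9.54% higher and 9.05% lower. Of the 12 enterocyte markers, 11 were tested. None of these 11 was called from day 3 to day 5, with 7 at an unadjusted limma p under 0.05. Day 5 against day 0 called 11 higher, and day 1 against day 0 called 3, Apoa1 (log2 change 4.71 ± 0.88, limma adjusted p = 0.00231), Krt20 (4.46 ± 0.88, 0.00310) and Alpi (4.14 ± 0.55, 0.000205). All 9 Paneth markers were tested, of which 8 were higher on day 5 than on day 0 and 7 higher than on day 3, led by Defa21 (4.48 ± 0.30, 8.53e-07) and Defa22 (4.04 ± 0.33, 4.98e-06). Defensin genes are near-identical copies, so the split of reads among them is uncertain. Defa21 and Defa22 reached 1 RPKM only in replicate 1 of day 3 and on days 4 and 5. Mptx2 reached it only on day 5 (1.45 ± 0.290, against 0.447 ± 0.397 on day 4). A change into those days was thus built into the passing of these Paneth markers. Of 11 goblet cell markers, 8 were higher on day 5 than on day 0 and 2 higher than on day 3. Among these markers, Ccl6 reached 1 RPKM only on days 4 and 5, so the same limit holds for it. On day 1, the goblet marker Clca1 was higher (2.36 ± 0.44, 0.00213) and Spink4 lower (−1.85 ± 0.45, 0.0102) than on day 0. The sum of the goblet markers was 224 to 615 RPKM on day 0, 273 to 361 on day 1 and 1742 to 2518 on day 5.

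For Reg4, the enteroendocrine markers are of interest, since it is known from these cells. Of 15, 14 were tested. From day 0 to day 1, where 9.54% of all genes were called higher and 9.05% lower, none was called higher, and Gip, an incretin hormone, was lower (−1.86 ± 0.59, limma adjusted p = 0.0402), with 6 of the 14 at an unadjusted p under 0.05. The summed enteroendocrine RPKM was 425, 133 and 417 on day 0, 189, 251 and 252 on day 1, 106 to 136 on day 3 and 256 to 315 on day 5. Reg4 was at its lowest in replicate 2 of day 0 (8.18 RPKM), which also had the lowest enteroendocrine and goblet sums of that day (133 and 224). On each of days 1 to 5, the library with the least Reg4 was not the one with the lowest enteroendocrine sum. On day 4, replicate 1 had the least Reg4 (51.3 RPKM) and the highest enteroendocrine sum (176). The goblet sum was lowest in the library with the least Reg4 on days 1, 3 and 5, but not on days 2 and 4. The part of these cells in the level of Reg4 was not tested.

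Pancreatic acinar genes, markers of the other organ that makes Reg proteins, were mostly near 0. Of 9, Cela3b, Cpa1 and Cpb1 were at 0 in all libraries and 2 passed the filter. Ctrb1, a chymotrypsinogen, was at 44.4 ± 17.1 RPKM on day 0, 6.22 ± 3.71 on day 1 and 99.2 ± 8.62 on day 5 (SD, n = 3). It made up most of the acinar sum, which was 95.1 to 112 RPKM on day 5.

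The receptor side of the known induction route was measured as well. Il22ra1, the specific chain of the interleukin 22 receptor, was at 7.47 ± 3.37 RPKM on day 0, 21.3 ± 1.70 on day 1 and 14.6 ± 1.77 on day 5. It rose by 1.46 ± 0.24 from day 0 to day 1 (log2 scale, limma adjusted p = 0.00102) and was 0.95 ± 0.24 above day 0 on day 5 (0.0141). Day 1 also had the lowest means of Reg1, Reg3a, Reg3b, Reg3d and Reg3g. None of these members was called against day 0 in the main fit, and all but Reg3a overlapped between the days. Any tie between Il22ra1 and the levels of the Reg genes was not tested. Of the list of 19 cytokine receptors and STAT3 signalling genes, 14 were tested, of which 4 were higher and none lower on day 5 than on day 0, among them Il17rc, a chain of the interleukin 17 receptor (0.95 ± 0.25, 0.0154), and the kinase Pim1 (0.94 ± 0.28, 0.0246). On day 5 against day 0, 11.4% of all genes were called higher. From day 3 to day 5 none of the 14 was called by limma and 1 had an unadjusted p under 0.05, where 1.58% of all genes were called higher and 0.342% lower, so a count of 0 is near the background.

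Stat3 itself was at 12.4 ± 2.08 RPKM on day 0 and 15.8 ± 2.54 on day 5 (log2 change 0.32 ± 0.18, limma adjusted p = 0.181). Socs3, a feedback target of STAT3, was at 6.08 ± 0.933 and 8.02 ± 2.89 (0.30 ± 0.28, 0.430), with 4.96 ± 1.84 on day 3. Neither was called in any of the 4 comparisons.

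Among 21 genes of microbial sensing and NF-kB signalling, 15 were tested. On day 5 against day 0, 1 was called higher and 2 lower, where 11.4% of all genes were called higher and 13.0% lower. On day 5 against day 0, Cd14, a co-receptor for lipopolysaccharide, was higher (0.98 ± 0.30, limma adjusted p = 0.0304), and Nfkbiz, a nuclear regulator of NF-kB (−0.86 ± 0.18, 0.00601), and Traf6, a signalling ligase (−0.49 ± 0.16, 0.0413), were lower. From day 3 to day 5 none of the 15 was called by limma and 2 had an unadjusted p under 0.05, again near the background of 1.58% higher and 0.342% lower. Of the exostosin family, 4 of 5 genes were tested and none was called by limma in any comparison, with 1 at an unadjusted p under 0.05 on day 5 against day 0. Of all genes, 11.4% were called higher and 13.0% lower there, and 9.54% and 9.05% on day 1 against day 0. With 4 genes, a count of 0 is near these shares. Extl3, the proposed receptor, was at 6.75 ± 0.647 RPKM on day 0 and 5.40 ± 0.761 on day 5 (−0.28 ± 0.19, adjusted p = 0.268).

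Defence genes of the epithelium outside the Reg family were mostly higher at the end where they passed the filter. Of 26, 25 were in the table and 12 were tested, the others being too low. On day 5 against day 0 the 12 had a median log2 change of 2.41, against −0.17 for all genes. There, 11.4% of all genes were called higher and 13.0% lower. Of the 12 defence genes, 9 were called higher and none lower. They include Zg16, a mucus lectin that binds Gram-positive bacteria (6.97 ± 0.61, limma adjusted p = 6.36e-06), Ang4, a bactericidal ribonuclease (4.28 ± 0.38, 6.45e-06), and the cytokine Il18 (4.26 ± 0.61, 0.000434). Zg16 rose early like Reg4, from 1.24 ± 0.794 RPKM on day 0 to 54.5 ± 32.2 on day 1 (4.44 ± 0.61, 0.000282). Itln1, a lectin of Paneth and goblet cells, fell from day 0 to day 1 (−2.98 ± 0.48, 0.000783) and rose from day 3 to day 5 (2.91 ± 0.48, 0.00459). Saa2, Retnlb and Camp were at 0 in all 18 libraries. Lyz1, Ang4, Mmp7 and Itln1 of this list are also on the list of Paneth markers.

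The genes outside the family whose levels were most like those of the members, by Pearson's r of log2(RPKM + 1) over the 18 libraries, are given as a description. For Reg1 they were Tmem86a (0.960), the inositol transporter gene Slc5a11 (0.959) and the apolipoprotein gene Apoc3 (0.958). For Reg3a they were the alcohol dehydrogenase gene Adh4 (0.977), Tmem86a (0.975) and Slc5a11 (0.972), and for Reg3d Slc5a11 (0.975), Slc6a3 (0.971) and the sugar transporter gene Slc2a7 (0.970). Reg3g was most like Adh4 (0.958), the trypsin inhibitor gene Spink1 (0.945) and Crebrf (0.944). Reg3b had other neighbours, namely Bbox1 (0.968), which encodes an enzyme of carnitine synthesis, Acsm5 (0.967) and Adprm (0.964).

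Bbox1, the gene most like Reg3b, was at 13.3 ± 12.2 RPKM on day 4 and 12.2 ± 8.29 on day 5 (SD, n = 3). Apoc3, most like Reg1 after Tmem86a and Slc5a11, was at 54.5 ± 55.9 on day 4 and 140 ± 23.1 on day 5. Bbox1 and Apoc3 were picked by likeness over the same libraries, so a course shared with the member follows from that choice. Reg4 was most like Snurf (0.895) and Snrpn (0.894), which share a transcript so that their reads may not be separate, and Zg16 (0.878). None of the neighbours of Reg4 was among those of another member.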

How the data were processed

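Sequencing of messenger RNA gave 18 libraries, 3 for each of 6 days. The values deposited by the authors are RPKM, and per the submitters' processing notes the tools were STAR 2.5.2b, edgeR 3.20.5 and bcl2fastq 2.17 with genome build mm10, without roles. The annotation, any scaling of library sizes, the use of strand and the handling of reads that fit several genes were not given in the sources used here. Reads were inferred from RPKM steps (a value counted as whole within 0.02 reads), of which 632 genes gave a shared depth.

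Here, limma 3.58.1 (R 4.3.3) was run on log2(RPKM + 1) with lmFit and a trended eBayes, 1 coefficient a day, for genes that reached 1 RPKM in 3 or more libraries. Tests were two-sided with Benjamini-Hochberg adjustment over 11111 genes. The log scale understates changes of low genes. The script was tested on simulated data. The libraries of a day come from up to 3 lines, and p-values measure the spread between these libraries.

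The members, gene lists and tests were chosen with earlier results of these data known. Named genes are the members, Extl3, Il22ra1, Stat3, Socs3 and Epcam, up to 3 called genes with the largest change from each list and comparison described, and the 3 genes most like each member. List genes at 0 and genes shared by lists were named after their values were seen. Samples were grouped by the day in their titles. The titles tie replicate numbers to the same mouse on days 0, 3, 4 and 5, so the numbers pair those samples. The deviations of same-numbered libraries from their day means had a median correlation of 0.17, and those of other pairs −0.0815. Alternatives were other pseudocounts, filters, scalings, sets of libraries and blocks. Promoters came from RefSeq (GRCm38.p6), where all 7 members matched. Protein sequences were not used here.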

Additional observations from a re-analysis of the deposited data

How the results depend on the processing

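No member of the Reg family changed sign in a called comparison under any alternative run. Reg4 on day 1 against day 0, and all 6 tested members on day 5 against day 0, kept their calls wherever they could be tested. Some uncalled values did change sign, such as Reg3b on day 1 against day 0 (−1.31 to 0.06). A filter at 5 RPKM and the DNase-treated libraries alone left Reg3d untested, as did a fit of only the days compared where day 5 was not one of them, which also left out Reg3a on day 3 against day 1. With only the days compared in the fit, the members called were 2 (day 1 against day 0) and 1 (day 5 against day 3, Reg3d). When each library was left out in turn, they were 3 to 5 on day 5 against day 3 and stayed at 1, 0 and 6 in the other comparisons and 6 over all days.

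With the replicate block, that is in a paired fit, 5 members were called on day 5 against day 3, Reg3b being added (4.03), and no other member's call changed. The block gave 303 genes there against 214 without it.

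Counts over all genes moved more. On day 3 against day 1, 4 genes were called, 7 with a pseudocount of 0.1, 2 with no filter, 0 with only the days compared, 0 with DNase-treated libraries alone, and 0 to 46 leaving out 1 library (46 without replicate 2 of day 3). On day 5 against day 3, they were 61 with only the days compared, 416 with DNase-treated libraries alone and 63 to 717 leaving out 1 library (717 without replicate 1 of day 3). On day 5 against day 0, 2714 were called, 1184 with DNase-treated libraries alone and 858 to 3546 leaving out 1 library. On day 1 against day 0, 2065 were called and 1176 to 2403 leaving out 1 library. Over all days, the figures were 2806, 1336 and 1582 to 5045. Without replicate 1 of day 0, replicate 2 of day 3 and replicate 3 of day 4 together, an alternative chosen after seeing the data, they were 95 (day 3 against day 1), 116 (day 5 against day 3) and 4803 (all days). Scaling to the median of ratios moved the median change of all genes on day 5 against day 0 from −0.17 to −0.004, and no direction of a called member. With a pseudocount of 0.1 the change of Reg3d on day 5 against day 0 was 4.25. The cause of these shifts was not tested. Depth limits Reg2, with at most 10 reads, and Reg3d before day 4.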
